A study of Homo sapiens with 6 samples.

Results

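The data describe 10 genes of the TGF-beta and BMP signalling pathways in HCT116, a human colorectal carcinoma cell line. The genes are the ligand TGFB1, the type I receptor TGFBR1, the signal transducers SMAD2, SMAD3 and SMAD4, the inhibitory SMAD6 and SMAD7, and ID1, ID2 and ID3. They were chosen by name, by matching the gene identifiers of the deposited tables to GENCODE release 29 symbols, and all 10 were found among the 58780 genes in the tables. RNA was sequenced from 3 auxin libraries, made after 16 h of treatment, and 3 DMSO libraries, the solvent control, each labelled as a separate biological replicate. Auxin is a plant hormone; in engineered mammalian cells it brings about the destruction of proteins fused to an auxin-inducible degron. The genotype label of the cells holds only the treatment, so no tagged protein, transgene or clone can be given here for either group, and the labels give no duration for DMSO. By its title the series is about networks next to nuclear speckles, which are nuclear bodies rich in splicing factors, and its design text names these treatments only.

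TGF-beta ligands bind type II receptors, which recruit and activate type I receptors such as TGFBR1. The type I receptors phosphorylate SMAD2 and SMAD3, which join SMAD4 and enter the nucleus to act on target genes. BMP ligands use SMAD1, SMAD5 and SMAD9 in the same way, and the ID genes are among their best known direct targets. ID proteins pair with E proteins such as TCF3 and keep them from binding DNA. SMAD6 and SMAD7 are induced by the pathways and act back on receptors and SMADs as inhibitors. HCT116 is deficient in DNA mismatch repair and is known for frameshift mutations in TGFBR2, the type II receptor of TGF-beta.

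Promoters are shown for TGFB1, the gene with the largest change, SMAD6, which holds the palindromic SMAD binding motif, and the 3 ID genes. The ID genes were lower after auxin in every replicate pair. Keeping direction across pairs does not set them apart, since every other gene chosen by name did so too. Each window runs 5′ to 3′ on the gene's strand, from 250 bases before to 50 bases after a RefSeq start, on GRCh38.p14. Capitals mark every match, on either strand, to any of 4 motifs. The palindromic SMAD motif is GTCTAGAC and the short SMAD motif is CAGAC. A GC-rich motif that SMADs also bind is GGCGCC. The letters of a TATA box are given here as TATAAA. The TGFB1 window is chr19:41353873-41354172 on the minus strand, the SMAD6 window chr15:66701986-66702285 on the plus strand, the ID1 window chr20:31605039-31605338 on the plus strand, the ID2 window chr2:8681806-8682105 on the plus strand, and the ID3 window chr1:23559452-23559751 on the minus strand.
TGFB1: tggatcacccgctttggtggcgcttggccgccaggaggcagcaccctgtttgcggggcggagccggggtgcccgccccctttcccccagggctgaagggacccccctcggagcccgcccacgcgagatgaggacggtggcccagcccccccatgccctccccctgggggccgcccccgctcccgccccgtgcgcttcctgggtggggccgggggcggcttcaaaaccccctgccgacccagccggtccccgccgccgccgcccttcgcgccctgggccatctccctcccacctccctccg
SMAD6: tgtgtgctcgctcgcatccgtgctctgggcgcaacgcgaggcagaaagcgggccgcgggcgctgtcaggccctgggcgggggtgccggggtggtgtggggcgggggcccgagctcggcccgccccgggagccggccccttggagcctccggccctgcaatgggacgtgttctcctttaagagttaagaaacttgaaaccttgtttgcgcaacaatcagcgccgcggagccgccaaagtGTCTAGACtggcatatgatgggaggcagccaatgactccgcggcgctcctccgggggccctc
ID1: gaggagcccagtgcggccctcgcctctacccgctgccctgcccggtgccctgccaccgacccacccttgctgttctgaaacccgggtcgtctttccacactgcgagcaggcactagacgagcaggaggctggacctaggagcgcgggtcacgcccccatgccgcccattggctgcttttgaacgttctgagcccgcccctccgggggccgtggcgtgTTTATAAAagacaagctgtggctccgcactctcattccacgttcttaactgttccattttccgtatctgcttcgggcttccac
ID2: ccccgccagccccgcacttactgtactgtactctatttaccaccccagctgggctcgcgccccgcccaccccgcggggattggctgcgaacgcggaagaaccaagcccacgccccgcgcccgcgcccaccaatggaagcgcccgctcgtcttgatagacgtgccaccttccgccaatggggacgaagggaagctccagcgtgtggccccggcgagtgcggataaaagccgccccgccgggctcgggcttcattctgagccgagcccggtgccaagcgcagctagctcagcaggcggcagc
ID3: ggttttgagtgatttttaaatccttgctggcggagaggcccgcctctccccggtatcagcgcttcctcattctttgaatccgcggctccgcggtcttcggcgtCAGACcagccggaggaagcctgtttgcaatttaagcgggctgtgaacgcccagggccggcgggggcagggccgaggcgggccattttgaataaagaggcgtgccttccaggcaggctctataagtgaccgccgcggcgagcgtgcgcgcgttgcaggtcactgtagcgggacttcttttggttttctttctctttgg

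The SMAD6 window holds GTCTAGAC at position -12, counted back from the start. Of all 35116 RefSeq promoter windows of 300 bases, 71 (0.202%) hold that motif, and among the 24 windows of the 10 genes the SMAD6 window was the only match. CAGAC is found in 45.3% of all windows and in 10 of the 24 windows, which are of ID3, SMAD3, SMAD7 and TGFBR1. GGCGCC is found in 19.2% of all windows and in 5 of the 24, which are of SMAD2, SMAD3, SMAD4 and TGFBR1. TATAAA is found in 11.5% of all windows and in 2 of the 24, which are of ID1 and SMAD7, and its 2 matches in ID1 overlap. The ID2 and TGFB1 windows hold none of these letters. G and C make up 77.3% of the TGFB1 window, 68% of the SMAD6 window, 62.7% of the ID1 window, 69% of the ID2 window and 59.7% of the ID3 window, against a median of 58.7% over all windows. These matches describe letters in a window and were not tested as binding sites.

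Total expected counts per library, the estimated numbers of reads assigned to genes, were between 234037969 and 625895062, with replicate 1 the deepest in both groups. The 6 epithelial marker genes fixed for the cell type check were all at 1 TPM or more, with a summed level of 1766 to 2438 TPM in the DMSO libraries and 2238 to 2689 TPM in the auxin libraries. Of 5 fibroblast markers only COL1A1 reached a mean of 1 TPM and LUM was listed at 0, and none of 3 endothelial markers reached it. Of 4 immune markers only CD68, which encodes a lysosomal glycoprotein, reached it, while PTPRC and CD3E were listed at 0. The summed level of the immune markers was 39.5 to 65.7 TPM in the DMSO libraries and 10.7 to 19.1 TPM in the auxin libraries. The part of CD68-expressing cells, or of sequencing depth, in the results was not tested.

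After auxin, TGFB1 fell 5.53-fold, SMAD4, TGFBR1 and ID1 fell 1.27-, 1.31- and 1.35-fold, and SMAD2, SMAD3, SMAD6 and SMAD7 rose. ID2 and ID3 were lower in each of the 3 replicate pairs and did not pass the test, which did not use the pairs. Genes were tested with the quasi-likelihood test of edgeR and called at a Benjamini-Hochberg adjusted p under 0.05, adjusted over all 19725 genes tested. By this rule 4 of the 10 genes rose and 4 fell. Over all genes tested, 25.4% were called higher, 26.9% were called lower and 52.3% were called in either direction. The median log2 fold change was -0.34 over the 10 genes and 0.02 over all genes tested. Levels of the 2 groups did not overlap for 8 of the 10 genes, and for 60.3% of all genes tested. A change in RNA per cell and a change in the fraction of cells that express a gene cannot be told apart in such bulk libraries.

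**Figure D1:**
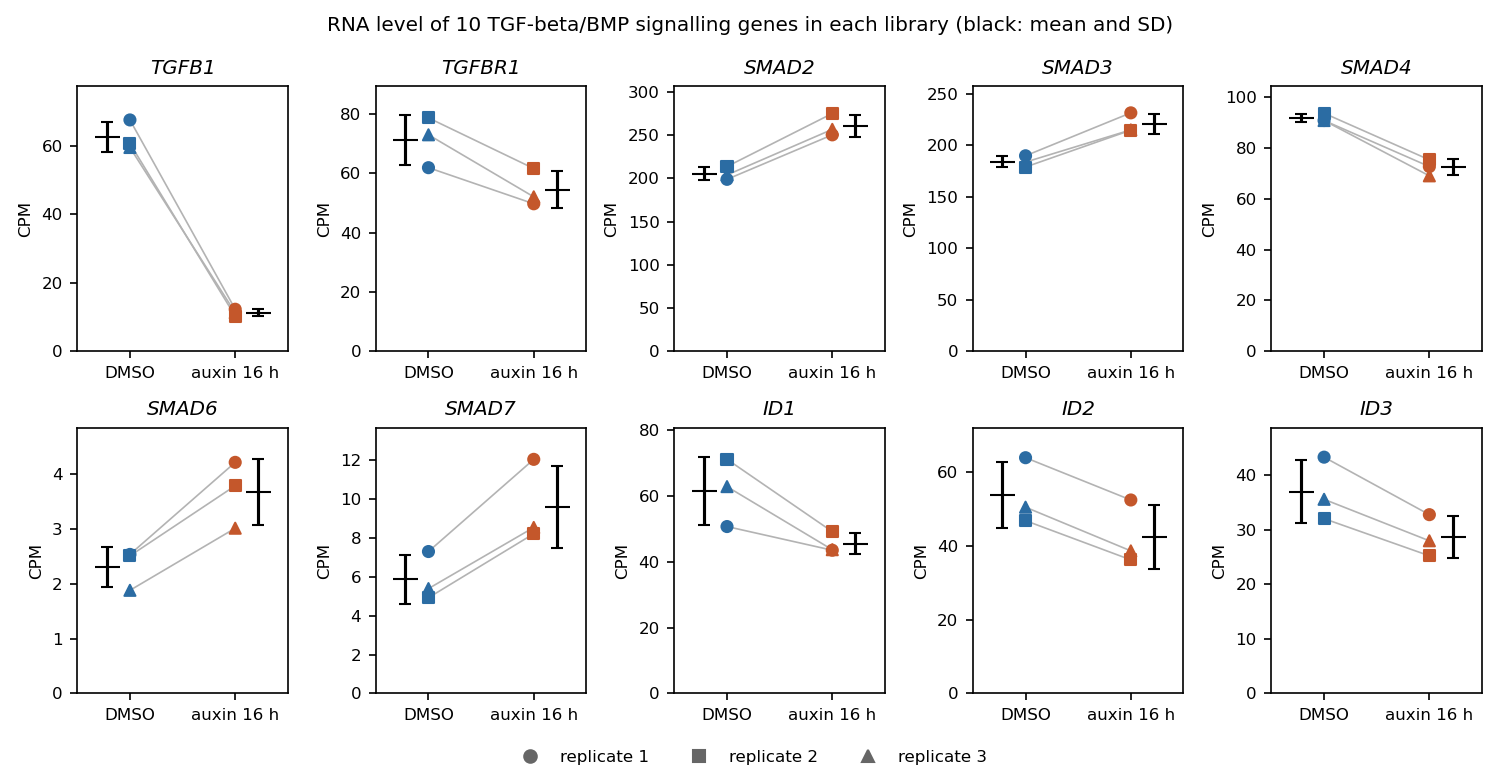
Level of each of the 10 genes in CPM (vertical axis, starting at 0) in the 3 DMSO and 3 auxin libraries, with lines joining libraries of the same replicate number and black bars giving the mean and SD. TGFB1 lies between 59.5 and 67.6 CPM after DMSO and between 10.3 and 12.3 CPM after auxin, while the groups overlap for ID2 and ID3.

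TGFB1 encodes the founding ligand of the TGF-beta family and lies on chromosome 19 (41301587 to 41353911, minus strand, GRCh38). Its level was 67.6, 60.7 and 59.5 CPM (counts scaled to a common library size with TMM factors) in DMSO replicates 1, 2 and 3 and 12.3, 10.3 and 11.3 CPM in auxin replicates 1, 2 and 3. All auxin libraries were far below all DMSO libraries, and the groups did not overlap. The mean was 62.6 ± 4.3 CPM after DMSO and 11.3 ± 1.0 CPM after auxin (SD, n = 3), which is 5.53-fold lower. On the log2 scale this was a change of -2.47 (edgeR, SE 0.09 and adjusted p = 2.8e-06). When tested genes were split into 5 equal bins by GC content, those in the highest bin, from 57.8% to 83.9% G and C, had a median log2 fold change of -0.63, and the most abundant TGFB1 transcript by count holds 63.5% G and C. With offsets corrected for GC content, a setting chosen after the data were seen, the log2 fold change of TGFB1 was -1.67 (edgeR adjusted p = 3.54e-06).

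Other genes overlap TGFB1 in the annotation. HNRNPUL1 and CCDC97 lie on the opposite strand and overlap the annotated gene, but no base of either falls within the span of the main transcript TGFB1-201. HNRNPUL1 had 128.8 ± 7.3 CPM after DMSO and 169.3 ± 9.2 CPM after auxin, and CCDC97 had 26.6 ± 0.5 and 23.4 ± 1.2 CPM (SD, n = 3). TMEM91 overlaps that span by 3001 bases and had 0.324 ± 0.103 and 0.155 ± 0.032 CPM. Whether counting used the strand is not given in the sources used here.

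Among 11 other ligand genes tested, 2 rose and 4 fell. Beside this and the later counts by role, 25.4% of all genes tested were called higher and 26.9% lower. BMP8B, a BMP ligand, fell from 25.3 ± 2.0 to 13.3 ± 0.9 CPM (log2 fold change -0.93, edgeR adjusted p = 0.000125). GDF11, a ligand that acts through activin receptors, fell from 18.0 ± 0.6 to 14.4 ± 1.2 CPM (log2 fold change -0.32, edgeR adjusted p = 0.0133). BMP6 rose from 2.96 ± 0.15 to 5.10 ± 0.42 CPM (log2 fold change 0.79, edgeR adjusted p = 0.000725). TGFB2, another TGF-beta ligand, named after its values were seen because its mean level is under 1 CPM, rose from 0.352 ± 0.071 to 0.986 ± 0.073 CPM (log2 fold change 1.48, edgeR adjusted p = 0.00054). The ligand genes thus changed in both directions, with TGFB1 the lowest of them by fold change among the ligands with a mean of at least 1 CPM.

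Genes for storage and activation of latent TGF-beta followed no common direction, with 2 of 10 higher and 2 lower. ITGB8, an integrin subunit that takes part in releasing active TGF-beta, rose from 39.6 ± 6.4 to 71.5 ± 11.5 CPM (log2 fold change 0.85, edgeR adjusted p = 0.00287). LTBP1, which tethers latent TGF-beta to the matrix, fell from 14.1 ± 0.3 to 9.92 ± 0.65 CPM (log2 fold change -0.50, edgeR adjusted p = 0.00138). FURIN, a protease that cleaves the TGF-beta precursor, fell from 40.1 ± 1.0 to 24.4 ± 1.0 CPM (log2 fold change -0.72, edgeR adjusted p = 6.47e-05). With GC-corrected offsets the FURIN value was -0.0047 (edgeR adjusted p = 0.976), so its call depended on that setting.

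TGFBR1 encodes the type I receptor that activates SMAD2 and SMAD3 and lies on chromosome 9 (99104038 to 99154192, plus strand). Its level was 61.9, 78.7 and 73.0 CPM in DMSO replicates 1, 2 and 3 and 49.7, 61.6 and 52.1 CPM in auxin replicates 1, 2 and 3. The highest auxin library lay just below the lowest DMSO library, so the groups did not overlap but came close. It fell by 0.39 on the log2 scale (edgeR, SE 0.11 and adjusted p = 0.0246). The call was lost without DMSO replicate 2 (edgeR adjusted p = 0.0725), DMSO replicate 3 (0.057), auxin replicate 1 (0.0554) or auxin replicate 3 (0.0862). It was also lost with upper-quartile factors (edgeR adjusted p = 0.0623) and with limma on log2(TPM + 1) (0.0708) or log2(TPM + 0.1) (0.0659), whereas with the replicate number as a block the edgeR adjusted p was 2.59e-05.

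Of 11 other receptor genes tested, 1 rose and 4 fell. The gene that rose was BMPR1B, named after its values were seen. It was near the floor, at 0.013 ± 0.009 CPM after DMSO and 0.075 ± 0.010 CPM after auxin, with at most 56 counts in a library. ACVR1C, a type I receptor for nodal and activin ligands, fell from 3.60 ± 0.40 to 2.72 ± 0.13 CPM (log2 fold change -0.40, edgeR adjusted p = 0.0257). TGFBR3, the coreceptor betaglycan, fell from 23.1 ± 1.1 to 18.1 ± 1.3 CPM (log2 fold change -0.35, edgeR adjusted p = 0.00726). ACVR2B, a type II activin receptor, fell from 53.1 ± 6.1 to 43.9 ± 2.5 CPM (log2 fold change -0.27, edgeR adjusted p = 0.0395). The ACVR1C call held under 9 and the ACVR2B call under 10 of 17 other settings. TGFBR2, named after its values were seen, had 41.5 ± 4.5 CPM after DMSO and 48.8 ± 5.1 CPM after auxin, with overlapping groups (log2 fold change 0.23, edgeR adjusted p = 0.102).

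SMAD2, which carries the signal of TGF-beta and activin receptors, lies on chromosome 18 (47808957 to 47931146, minus strand). It had 198.9, 213.7 and 204.0 CPM in DMSO replicates 1, 2 and 3 and 250.3, 275.1 and 256.7 CPM in auxin replicates 1, 2 and 3. Every auxin library was above every DMSO library, and the 3 replicate pairs differed by 0.33, 0.36 and 0.33 on the log2 scale. The fitted log2 fold change was 0.34 (edgeR, SE 0.06 and adjusted p = 0.00325). With limma on log2(TPM + 1) it was 0.13 and the call was lost (limma adjusted p = 0.672).

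SMAD3, the partner of SMAD2 that also binds DNA directly, lies on chromosome 15 (67063763 to 67195195, plus strand). It had 189.9, 179.0 and 183.8 CPM in the DMSO libraries and 231.6, 214.8 and 215.0 CPM in the auxin libraries, in replicate order. The auxin libraries were again all higher, and the groups did not overlap. The log2 fold change of SMAD3 was 0.26 (edgeR, SE 0.06 and adjusted p = 0.00891). With library size as the only scaling it was 0.17 (edgeR adjusted p = 0.175), and the call was also lost without DMSO replicate 2 (edgeR adjusted p = 0.0583) or DMSO replicate 3 (0.0508).

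SMAD4, the common partner of the receptor-activated SMADs, lies on chromosome 18 (51028394 to 51085045, plus strand). It had 90.6, 93.5 and 90.6 CPM in the DMSO libraries and 72.6, 75.2 and 68.9 CPM in the auxin libraries. The DMSO libraries lay close together, all above the auxin libraries. SMAD4 had a log2 fold change of -0.34 (edgeR, SE 0.05 and adjusted p = 0.00153), about as far below 0 as that of SMAD2 was above it. An overlapping protein-coding entry without a symbol on the same strand had only 0.193 ± 0.103 CPM after DMSO and 0.209 ± 0.013 CPM after auxin.

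Of the 3 SMAD genes outside the 10, SMAD5, which carries BMP signals, rose from 163.7 ± 2.7 to 197.8 ± 7.6 CPM (log2 fold change 0.27, edgeR adjusted p = 0.00519). SMAD1 and SMAD9 did not pass the test. Of 12 SMAD cofactor and scaffold genes, 3 rose and 4 fell. ZFYVE16, an endosomal protein that binds SMADs, fell from 102.7 ± 10.1 to 62.2 ± 3.6 CPM (log2 fold change -0.72, edgeR adjusted p = 0.000371). ZEB1, a repressor of epithelial genes that binds SMADs, rose from 8.85 ± 0.02 to 14.3 ± 0.1 CPM (log2 fold change 0.69, edgeR adjusted p = 0.000137). RUNX1, a transcription factor that works with SMADs, rose from 125.4 ± 5.3 to 184.2 ± 4.0 CPM (log2 fold change 0.55, edgeR adjusted p = 0.000196). The cofactor genes thus moved both ways.

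The inhibitory SMADs rose from low levels. SMAD6, which mainly restrains BMP signalling, lies on chromosome 15 (66702228 to 66782848, plus strand). It had 2.54, 2.51 and 1.88 CPM in the DMSO libraries and 4.22, 3.79 and 3.02 CPM in the auxin libraries. The lowest auxin library was above the highest DMSO library. SMAD6 had a log2 fold change of 0.67 (edgeR, SE 0.18 and adjusted p = 0.0155), a 1.59-fold rise. Its rounded counts ranged from 511 to 2726 per library, so counting error was small beside the spread between replicates.

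SMAD7, which restrains TGF-beta receptors and is itself induced by TGF-beta, lies on chromosome 18 (48919853 to 48952052, minus strand). It had 7.30, 4.92 and 5.39 CPM in the DMSO libraries and 12.04, 8.21 and 8.54 CPM in the auxin libraries. Replicate 1 was the highest library of both groups, and the groups did not overlap. The replicate pairs differed by 0.72, 0.74 and 0.66 on the log2 scale, and the log2 fold change of SMAD7 was 0.71 (edgeR, SE 0.20 and adjusted p = 0.0218). The call was lost without DMSO replicate 2 (edgeR adjusted p = 0.0831) or DMSO replicate 3 (0.0755). With GC-corrected offsets the log2 fold changes were larger, at 1.16 for SMAD6 (edgeR adjusted p = 0.000383) and 1.18 for SMAD7 (0.000222). With library size as the only scaling neither passed, at 0.58 for SMAD6 (edgeR adjusted p = 0.0587) and 0.62 for SMAD7 (0.0868).

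Among 19 other inhibitor and antagonist genes tested, 8 rose and 3 fell, against 25.4% higher and 26.9% lower over all genes tested. The median log2 fold change of this list was 0.05, close to the 0.02 of all genes tested. PMEPA1, a TGF-beta target that removes SMAD2 and SMAD3 from their receptor, rose from 1.45 ± 0.15 to 5.49 ± 0.34 CPM (log2 fold change 1.92, edgeR adjusted p = 2.24e-05). NEDD4L, a ubiquitin ligase for phosphorylated SMAD2 and SMAD3, rose from 100.8 ± 3.0 to 174.0 ± 5.3 CPM (log2 fold change 0.79, edgeR adjusted p = 3.46e-05). FSTL3, a secreted binder of activin, fell from 25.7 ± 3.9 to 4.81 ± 0.77 CPM (log2 fold change -2.41, edgeR adjusted p = 2.39e-05), and with GC-corrected offsets its value was -1.57. The FSTL3 change was close in size to that of TGFB1, while PMEPA1 and NEDD4L rose as SMAD6 and SMAD7 did.

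ID1, an inhibitor of E proteins and a direct BMP target, lies on chromosome 20 (31605283 to 31606515, plus strand). It had 50.7, 71.1 and 62.8 CPM in the DMSO libraries and 43.5, 49.1 and 43.7 CPM in the auxin libraries. The groups did not overlap, but DMSO replicate 1 was near the highest auxin library. The replicate pairs differed by -0.22, -0.53 and -0.53 on the log2 scale, and the log2 fold change of ID1 was -0.44 (edgeR, SE 0.12 and adjusted p = 0.0211). The call was lost without auxin replicate 3 (edgeR adjusted p = 0.0741) and with upper-quartile scaling (0.0531). With GC-corrected offsets the log2 fold change of ID1 was -0.05 (edgeR adjusted p = 0.809).

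ID2, which acts like ID1 and is also regulated outside the BMP pathway, lies on chromosome 2 (8678845 to 8684453, plus strand). It had 63.9, 46.9 and 50.5 CPM in the DMSO libraries and 52.5, 36.2 and 38.7 CPM in the auxin libraries. Replicate 1 was the highest of both groups, and auxin replicate 1 lay above DMSO replicates 2 and 3, so the groups overlapped. ID2 had a log2 fold change of -0.34 (edgeR, SE 0.17 and adjusted p = 0.132). Without DMSO replicate 1 it was -0.20, and without auxin replicate 1 it was -0.52 and passed the test (edgeR adjusted p = 0.0139). With the replicate number as a block it was -0.35 and passed the test (edgeR adjusted p = 2.19e-05).

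ID3, the third ID gene, lies on chromosome 1 (23557918 to 23559794, minus strand). It had 43.3, 32.0 and 35.6 CPM in the DMSO libraries and 32.7, 25.2 and 27.96 CPM in the auxin libraries. As for ID2, replicate 1 was the highest of both groups and the groups overlapped. The log2 fold change of ID3 was -0.37 (edgeR, SE 0.14 and adjusted p = 0.0571), and without DMSO replicate 1 it was -0.24. ID3 passed with the replicate number as a block (edgeR adjusted p = 1.92e-05), with DESeq2 (0.0287), with replicates 2 and 3 only (edgeR, 0.00193), without a filter (0.0303), without DMSO replicate 2 (0.0323) and without auxin replicate 1 (0.0196). With GC-corrected offsets the value of ID3 was -0.02 (edgeR adjusted p = 0.834) and that of ID2 was -0.51 (0.0494). The transcripts used for GC content hold 57.6% G and C for ID1, 57.2% for ID3 and 44.2% for ID2.

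Of the E protein partners of the ID genes, TCF3 fell and TCF12 rose. TCF3 went from 66.8 ± 7.9 to 27.7 ± 3.4 CPM (log2 fold change -1.27, edgeR adjusted p = 0.000114), and with GC-corrected offsets its value was -0.62. TCF12 went from 110.8 ± 2.0 to 131.5 ± 1.1 CPM (log2 fold change 0.25, edgeR adjusted p = 0.00478), and with GC-corrected offsets it did not pass (0.10, edgeR adjusted p = 0.118). ID4, named after its values were seen because its mean level is under 1 CPM, fell from 0.194 ± 0.024 to 0.073 ± 0.036 CPM (log2 fold change -1.33, edgeR adjusted p = 0.0163).

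Target genes of the pathways were called higher more often than lower, 14 against 1 of 21 tested, and their median log2 fold change was 0.43. For comparison, 25.4% of all tested genes were higher and 26.9% lower. The target list was chosen with earlier results of these data known, so its counts describe the list and carry no test. CCN2, a matricellular protein, rose from 4.19 ± 0.08 to 14.1 ± 0.7 CPM (log2 fold change 1.75, edgeR adjusted p = 6.36e-06). SNAI2, a transcriptional repressor of epithelial genes, rose from 0.566 ± 0.043 to 1.79 ± 0.11 CPM (log2 fold change 1.66, edgeR adjusted p = 5.96e-05). These target genes are also controlled by other pathways. MSX1, a BMP target named after its values were seen, was the gene called lower, at 47.6 CPM after DMSO and 35.2 CPM after auxin. MSX2, from the same list and also named after its values were seen, went the other way. It rose from 15.9 ± 2.1 to 23.6 ± 3.1 CPM (log2 fold change 0.57, edgeR adjusted p = 0.00796). The other 6 tested targets, among them FN1 (log2 fold change 0.43) and JUNB (-0.25), both named after their values were seen, did not pass the test.

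Over all 8 role lists without the 10 genes, 90 of 97 genes were tested. These lists were chosen with earlier results of these data known. Of these 32 rose, 20 fell and 38 were not called, which is 57.8% called against 52.3% of all genes tested, with a median log2 fold change of 0.13. With upper-quartile scaling, which moved the median of all genes by 0.12 on the log2 scale, 43 rose and 13 fell. Of all 19725 genes tested, that scaling called 6534 higher and 4416 lower.

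**Figure D2:**
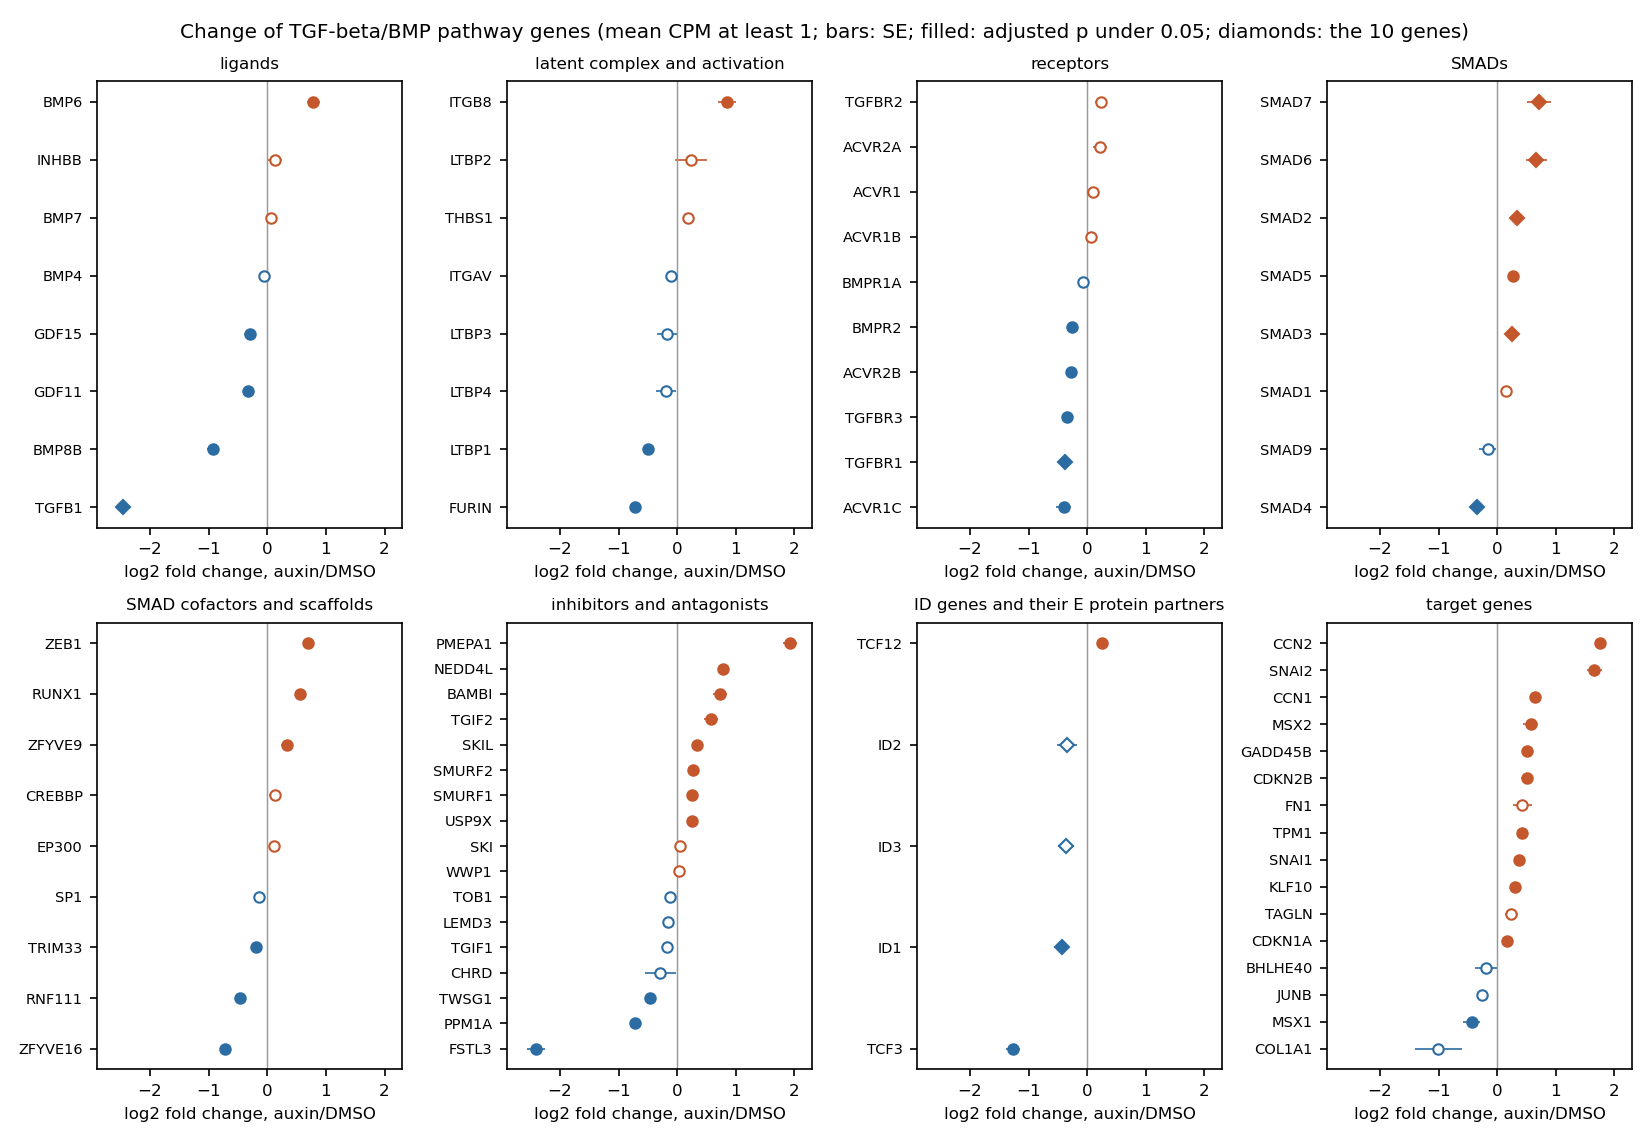
Log2 fold change of auxin over DMSO (horizontal axis) with its SE for genes of each role list with a mean of at least 1 CPM, with filled symbols for an edgeR adjusted p under 0.05 and diamonds for the 10 genes. TGFB1 at -2.47 and FSTL3 at -2.41 lie farthest to the left, and most filled symbols among the target genes lie to the right of 0.

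The order of levels was compared in TPM, which is scaled by transcript length. After DMSO the mean TPM of the 10 genes was 80.1 for SMAD2, 77.4 for SMAD4, 75.3 for ID1, 54.4 for ID2, 48.5 for SMAD3, 47.7 for ID3, 25.2 for TGFB1, 22.7 for TGFBR1, 2.24 for SMAD7 and 0.617 for SMAD6. The ranges of neighbours in this order overlapped, except those of TGFBR1 and SMAD7 and of SMAD7 and SMAD6. Compared library by library, ID2 was also above SMAD3 and ID3 above TGFB1 in all 3 DMSO libraries. After auxin the mean TPM was 86.8 for SMAD2, 60.3 for SMAD3, 56.6 for SMAD4, 49.98 for ID1, 38.3 for ID2, 31.8 for ID3, 15.7 for TGFBR1, 4.55 for TGFB1, 3.19 for SMAD7 and 0.913 for SMAD6. Here ID3 and TGFBR1, TGFBR1 and TGFB1, and SMAD7 and SMAD6 did not overlap, and the other neighbours did. TGFB1 was above TGFBR1 in all 3 DMSO libraries and below it in all 3 auxin libraries. In mean CPM, which is not scaled by length, TGFB1 was at 62.6 and TGFBR1 at 71.2 after DMSO. This order in TPM depends on short transcripts. After DMSO, SMAD2-207 (828 bases) had 48.1% of the TPM of SMAD2 but 11.8% of its counts. TGFBR1-204 (533 bases) had 41.2% of the TPM of TGFBR1 but 4.45% of its counts. The inhibitory SMADs were the least abundant of the 10 genes in all 6 libraries. Replicate 1 stood apart in TPM for several genes, as for SMAD3, which had 76.5 TPM in DMSO replicate 1 against 33.6 and 35.3 in DMSO replicates 2 and 3.

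Ratios between the SMADs and between the ID genes were compared on the log2 TPM scale with two-sided exact permutation tests, which with 3 against 3 libraries cannot give a p below 0.1. The log2 ratio of SMAD7 to SMAD3 was -4.41 ± 0.09 after DMSO and -4.25 ± 0.09 after auxin (SD, n = 3, exact permutation p = 0.2), a difference of 0.16. From expected counts in place of TPM that difference was 0.45 (exact permutation p = 0.2), higher in 3 of 3 replicate pairs. The ratio of SMAD6 to SMAD3 differed by 0.22 in TPM (exact permutation p = 0.4) and by 0.41 in expected counts (p = 0.2), higher in 3 of 3 pairs on both scales. With 1 library left out the TPM difference of SMAD6 to SMAD3 was between 0.05 and 0.38. The ratio of SMAD2 to SMAD3 differed by -0.24 in TPM, lower in 3 of 3 pairs, and by 0.08 in expected counts, higher in 3 of 3 pairs (exact permutation p = 0.5 for both). The ratio of ID1 to ID3 differed by -0.04 (exact permutation p = 1). The groups overlapped for all 4 ratios, on both scales, and the ratios were not tested with the pairs as blocks.

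The deposited transcript tables were used to ask which annotated transcripts carried these changes, as far as the authors' model assigned reads between them. Of 80 annotated transcripts of the 10 genes, 54 were tested and 7 were called, 6 higher and 1 lower. That is 13.0% of those tested, against 19.7% of all 83072 transcripts tested, of which 8.43% were higher and 11.2% lower. With the replicate number as a block, 14 transcripts were higher and 7 lower, and the share over all transcripts is not given here for that setting. Over all genes tested the block also called more, 7005 higher and 6789 lower, against 5010 and 5311 in the main fit. The 6 higher transcripts were SMAD2-203, SMAD2-208, SMAD3-201, SMAD3-204, SMAD6-201 and ID1-201, of which SMAD2-203, SMAD2-208, SMAD3-204 and ID1-201 were named after their values were seen.

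TGFB1-201, the main coding transcript of TGFB1 (2769 bases), carried the fall of its gene. Its share of the TPM of TGFB1 was 97.1, 96.8 and 97.5% in the DMSO libraries and 86.6, 80.1 and 87.1% in the auxin libraries. The groups did not overlap (exact permutation p = 0.1, the smallest that 3 against 3 allows). By expected counts, which are not weighted by length, the share of TGFB1-201 was 99.7% after DMSO and 97.9% after auxin. The log2 fold change of TGFB1-201 was -2.48 (edgeR adjusted p = 0.000155). The short TGFB1-203 (559 bases), named after its values were seen, had 1.38 ± 0.34% of the gene's TPM after DMSO and 9.70 ± 1.85% after auxin, but its own level did not pass the test, at 0.121 and 0.177 CPM (edgeR adjusted p = 0.282). TGFB1-203 is the only annotated TGFB1 transcript that extends past TGFB1-201, into the part of the gene that HNRNPUL1 and CCDC97 overlap. Whether reads of these genes entered its counts was not tested.

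SMAD6-201, the full-length coding transcript (3835 bases, 4 exons), carried the rise of SMAD6. Its share of the gene's TPM was 62.7, 70.9 and 65.2% in the DMSO libraries and 84.2, 82.4 and 82.4% in the auxin libraries, with no overlap (exact permutation p = 0.1). Its level rose from 1.45 ± 0.20 to 3.11 ± 0.36 CPM (log2 fold change 1.099, edgeR adjusted p = 0.0101), which is more than the 0.67 of the whole gene. The other main transcript, SMAD6-205, is an unspliced noncoding transcript of 1 exon and 5198 bases, and its share was 26.5 ± 3.2% after DMSO and 10.9 ± 3.0% after auxin. SMAD6-205 had 0.829 ± 0.169 and 0.560 ± 0.214 CPM and did not pass the test (edgeR adjusted p = 0.332).

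ID1 has a spliced transcript, ID1-202 (994 bases, 2 exons), and ID1-201 (1233 bases, 1 exon), which spans the same region and keeps the intron. ID1-201 had 2.58, 1.48 and 1.52% of the gene's TPM in the DMSO libraries and 6.54, 5.00 and 4.08% in the auxin libraries. Every auxin library was above every DMSO library. The level of ID1-201 rose from 1.43 ± 0.21 to 3.04 ± 0.63 CPM (log2 fold change 1.09, edgeR adjusted p = 0.02), while ID1-202 had a log2 fold change of -0.49 and did not pass the test (edgeR adjusted p = 0.0797). The minor unspliced form and the main spliced form of ID1 thus had fold changes of opposite sign, a difference that was not itself tested beyond the shares.

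SMAD7 had much the same composition by transcript in both groups. The retained-intron transcript SMAD7-202 had 63.2 ± 1.4% of the TPM of SMAD7 after DMSO and 64.3 ± 1.9% after auxin, beside the coding SMAD7-201 with 32.8 ± 1.8 and 33.7 ± 1.5%. By expected counts the longer SMAD7-201 had the larger share, 51.6 ± 1.9% after DMSO and 52.0 ± 1.8% after auxin. The count share of SMAD7-202 was 47.1 ± 1.8 and 47.2 ± 2.0%. SMAD4-215, a noncoding transcript of 475 bases, had 65.8 ± 1.5 and 66.5 ± 0.9% of the TPM of SMAD4 but only 15.2 ± 1.5 and 16.1 ± 0.7% of its counts. SMAD4-217, a transcript annotated as a target of nonsense-mediated decay, had 8.87 ± 0.46% of the TPM of SMAD4 after DMSO and 10.2 ± 0.5% after auxin without overlap (exact permutation p = 0.1), while its own level did not pass the test (log2 fold change -0.07, edgeR adjusted p = 0.768). A TPM level of SMAD4 is thus mostly that of a short noncoding transcript, whereas its counts are mostly those of longer ones. SMAD3-201, the main coding transcript, had 65.2 ± 15.05% of the TPM of SMAD3 after DMSO and 52.2 ± 9.7% after auxin, with overlapping groups, and 96.0 ± 2.7 and 93.0 ± 2.5% of its counts. DMSO replicate 1 and auxin replicate 1 had the lowest SMAD3-201 shares of their groups, at 47.8% and 42.3% of TPM.

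**Figure D3:**
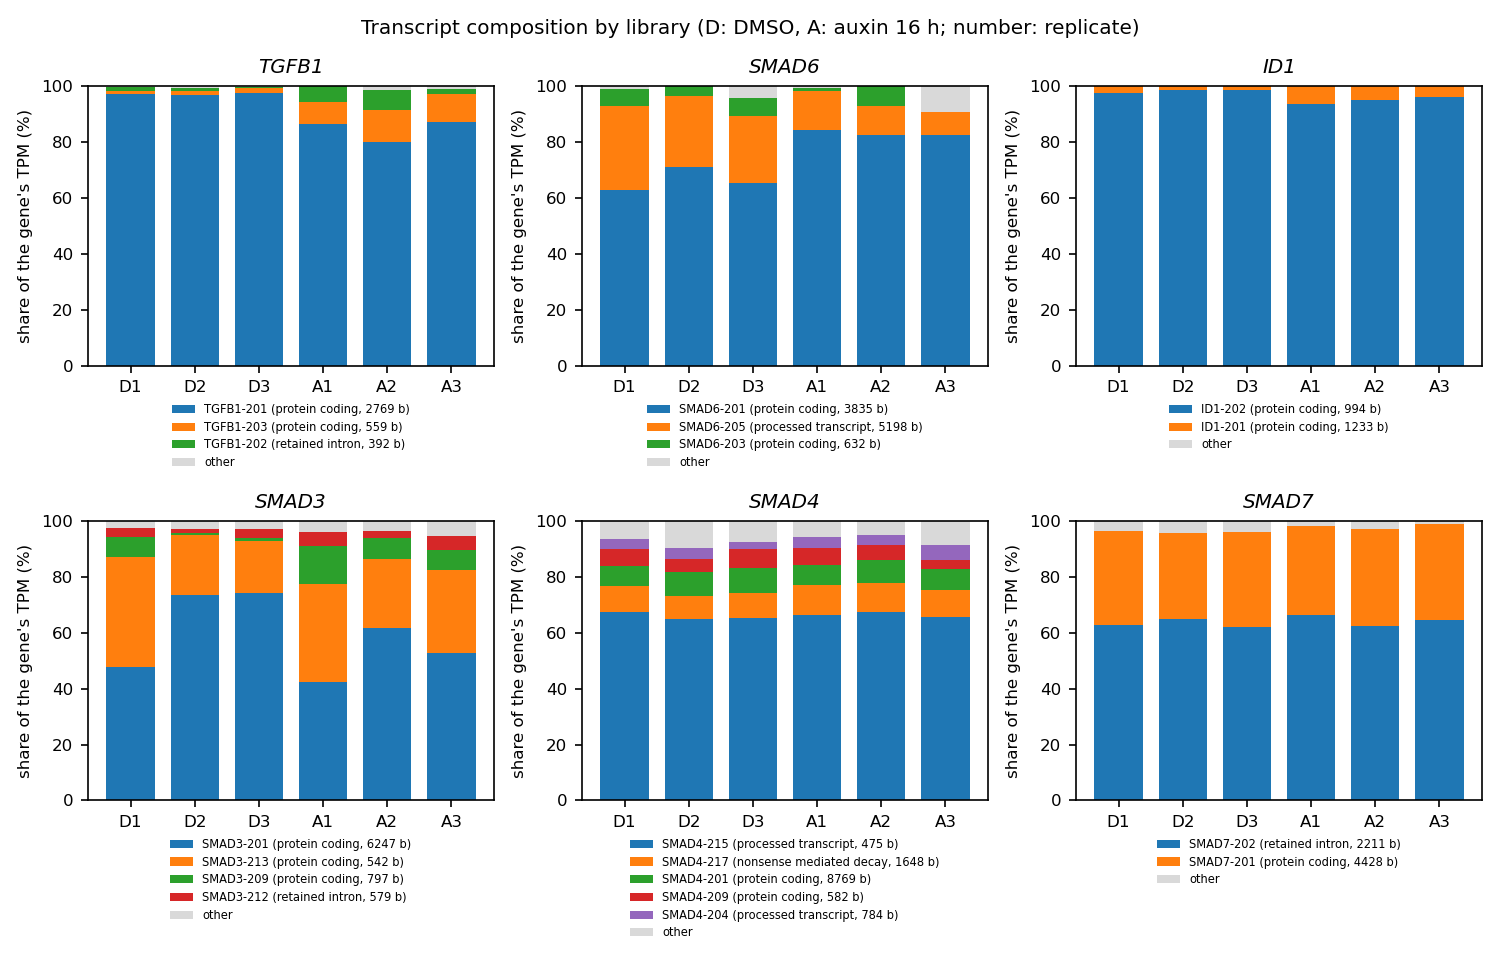
Share of a gene's summed TPM (vertical axis, percent) taken by its transcripts in each DMSO (D) and auxin (A) library for 6 of the 10 genes, with the type and length of each transcript in the key. The TGFB1-201 share is 80.1 to 87.1% after auxin against 96.8 to 97.5% after DMSO, the SMAD6-201 share is higher after auxin, and the SMAD7-202 share is 63.2% after DMSO and 64.3% after auxin in the mean.

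The genes whose levels were most like those of SMAD7 and TGFB1, which had the highest and lowest log2 fold changes of the 10, were found by Pearson's r of log2 CPM over the 6 libraries among 12847 genes with a mean of at least 1 CPM. FAM174C (r = 0.997) and PCBP1-AS1 (0.997) were among the 3 genes most like SMAD7, with log2 fold changes of 0.69 and 0.29. SLC6A8, AKT2 and PCGF2 (each r = 0.9999) were most like TGFB1, with log2 fold changes of -3.55, -2.11 and -3.18. An r above 0.95 was found for 385 genes with SMAD7 and for 2963 genes with TGFB1. These values describe 6 libraries that share treatment and depth, and carry no test.

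Each of the 10 genes kept its direction under all 17 other settings tried and in all 3 replicate pairs. TGFB1 passed the threshold under all 17, SMAD2 and SMAD4 under 15, SMAD6 under 14, ID1 under 13, SMAD3 and SMAD7 under 12, TGFBR1 under 10, ID3 under 6 and ID2 under 5. ID1 was at -0.05 and ID3 at -0.02 with GC-corrected offsets, so for these genes the direction was then carried by values near 0. With limma on log2(TPM + 0.1), TGFB1 and ID1 were called, and the limma adjusted p was 0.669 for SMAD2, 0.525 for SMAD3, 0.213 for SMAD4, 0.262 for SMAD6 and 0.381 for SMAD7.

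**Figure D4:**
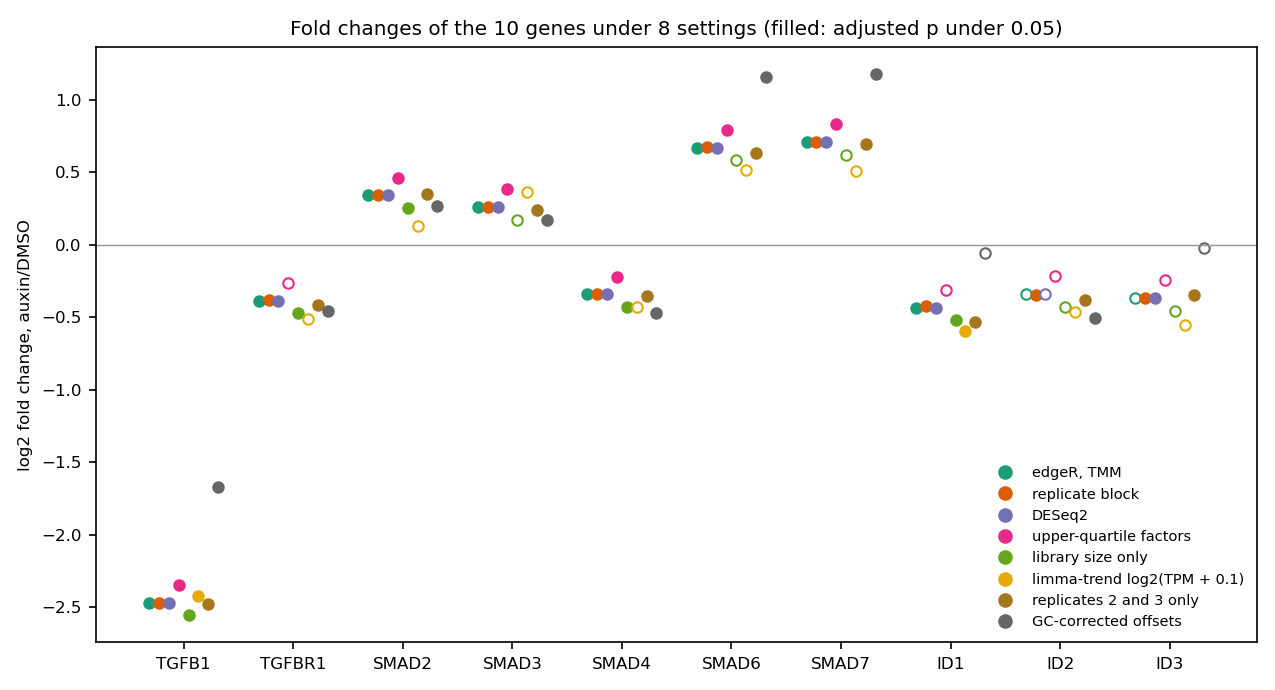
Log2 fold change of auxin over DMSO (vertical axis) for each of the 10 genes under 8 settings, with filled symbols for an adjusted p under 0.05. TGFB1 is filled under every setting shown and moves to -1.67 with GC-corrected offsets, while ID1 and ID3 move to -0.05 and -0.02.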

How the data were processed

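RNA-seq of 3 auxin and 3 DMSO libraries was analysed from a gene table and a transcript table per library. Per the labels' protocols, ribosomal RNA was removed and stranded libraries were sequenced paired-end. The submitters' processing notes name bcl2fastq 2.20, STAR and DESeq2 and the builds GRCh38 and hg38. The program that counted and its use of strand are not given in the sources used here. Per the file headers, the authors deposited expected counts, estimated read numbers that need not be whole and are not normalized. The deposited TPM values are scaled by transcript length to a fixed total. Entries that are not GENCODE release 29 genes took at most 0.00111% of counts and were left out.

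Expected counts were rounded and tested with edgeR 4.0.16 in R 4.3.3 (filterByExpr, TMM factors, glmQLFit, glmQLFTest, Benjamini-Hochberg over all genes or transcripts, threshold 0.05), without covariates. CPM uses the TMM-scaled library size, and the SE of a log2 fold change comes from the F statistic. Alternatives were DESeq2 1.42.0, limma 3.58.1 on log2(TPM + 1) and log2(TPM + 0.1), other scalings and filters, a replicate block, replicates 2 and 3 only, and each library left out. GC-corrected offsets (lowess over the GC content of each gene's transcript with the most counts, span 0.3) were added after the data were seen. The script was tested on simulated data. Replicate numbers come from the labels as biological replicates. Deviations from the group means correlated at 0.861, 0.634 and 0.607 between libraries of the same number. The numbers were taken as pairs for the pair differences and the replicate block, while the main test did not use the pairs. Replicates 2 and 3 were hardly told apart, since DMSO replicate 3 correlated with auxin replicate 2 at 0.607 as well, and DMSO replicate 2 with auxin replicate 3 at 0.398.

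The 10 genes and the role lists were chosen with earlier results of these data known. Beside the 10, the text names from each role list the 3 called genes with the largest absolute log2 fold change and a mean of at least 1 CPM, 3 genes most like the highest and the lowest of the 10, and transcripts with at least 10% of a gene's TPM. Some genes that this rule selects are not reported here by name or in the plots. Other names were chosen after their values were seen. Promoter sequences are RefSeq's, on GRCh38.p14, and coordinates of genes are those of GENCODE release 29. Rounded counts of the 10 genes were 511 or more in every library.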

Additional observations from a re-analysis of the deposited data

How the results depend on the processing

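Of the 10 genes, 4 were called higher and 4 lower. The number called higher was 1 with library size as the only scaling and 0 with limma on log2(TPM + 1) or log2(TPM + 0.1), where no gene of the 10 was higher at an unadjusted limma p under 0.05 either (0 on both scales), and it was 2 to 4 with 1 library left out. The number called lower was 2 with upper-quartile factors and 2 with limma on either TPM scale, and 2 to 5 with 1 library left out. Over all genes, limma on log2(TPM + 1) called 970 higher and 2966 lower, and on log2(TPM + 0.1) 1017 and 3223. The share of calls that were higher was 48.5% with TMM, 59.7% with upper-quartile factors, 40.9% with library size only, and 24.6% and 24.0% with limma. These limma values were shifted by -0.14 and -0.15 in their median.

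The replicate block turned ID2 and ID3 into calls and ended no call among the 10 genes. Over all 19725 genes tested it called 7005 higher and 6789 lower, against 5010 and 5311 in the main fit. Of the other pathway genes it called 41 higher and 33 lower, and of the transcripts 14 higher and 7 lower. Replicates 2 and 3 alone, which leave out the deepest pair, called all 10 genes in the same directions. Over all 19556 genes tested in that setting, 5914 were called higher and 6219 lower. Pathway genes called higher numbered 7 with limma on either scale and 49 with GC-corrected offsets and the replicate block. That last setting called 7134 of all 19708 genes tested higher. Pathway genes called lower numbered 13 with upper-quartile factors, 7 and 9 with limma, and 12 to 20 with 1 library left out. Transcripts called higher numbered 12 with DESeq2 and 1 to 5 with 1 library left out, and transcripts called lower 9 with DESeq2, 4 with at least 10 counts in every library and 1 to 3 with 1 library left out. Calls over all transcripts are given here for the main fit only. The cause of the shifts between settings was not tested.

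Some differences near 0 changed sign. With expected counts the log2 ratio of SMAD2 to SMAD3 differed by 0.0838, and with 1 library left out the ratio of ID1 to ID3 differed by -0.32 to 0.18. With 1 library left out, share differences in percentage points ranged from -0.44 to 9.76 for SMAD3-213, -0.16 to 1.73 for SMAD7-201, -8.36 to 0.54 for ID2-203, -0.53 to 8.53 for ID2-202, -1.55 to 2.64 for TGFBR1-204 and -0.36 to 3.34 for TGFBR1-202. The TGFBR1-204 share differed by 0.036 in expected counts.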
